A study of Mus musculus with 4 samples.

Results

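Mitochondrial ribosomal proteins are the protein subunits of the mitoribosome, the ribosome that works inside mitochondria. The genes were chosen by a rule on names, with earlier results of these data known. The rule took every gene of the count table called Mrpl or Mrps followed by a number and at most 1 letter. This gave 78 of the 52459 genes listed. Of these, 49 carry the name of the large subunit (Mrpl) and 29 that of the small subunit (Mrps), and names with a hyphen, which are pseudogenes, were left out. Expression was measured in intestinal stem cells (ISCs) sorted from wild-type C57/Bl6 mice, in 2 pools of young mice (2 months, ISC_2mth) and 2 pools of old mice (22 months, ISC_22mth). Each pool held the cells of 5 animals and gave 1 library, so that differences between animals of a pool cannot be seen. The gate took cells positive for CD166 and EPCAM, high for CD44 and EPHB2, medium for CD24, low for GRP78 and negative for CD31 and CD45, and RNA was amplified along whole transcripts by single primer isothermal amplification.

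The mitoribosome translates the few mRNAs that the mitochondrial genome encodes, all of which code for subunits of the respiratory chain and ATP synthase. Its ribosomal RNAs, mt-Rnr1 in the small and mt-Rnr2 in the large subunit, are also made from the mitochondrial genome, whereas all its proteins are encoded in the nucleus, made in the cytosol and imported. The small subunit decodes the mRNA and the large subunit joins the amino acids. Some of the proteins have counterparts in bacterial ribosomes and others are found only in mitochondria. Intestinal stem cells at the crypt base are known to depend on mitochondrial respiration. Names do not always give the subunit. In structures of the mammalian mitoribosome, MRPS30 and MRPS18A sit in the large subunit, and MRPS36 is now known as a subunit of the 2-oxoglutarate dehydrogenase complex.

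Promoters are printed for the 2 members that passed the test between ages, Mrpl30 and Mrpl36, and for the small subunit members of lowest p in either direction, Mrps22, Mrps18c and Mrps21. Each run holds 250 bases before and 50 bases after the RefSeq start of the gene in GRCm38.p6, written 5′ to 3′ on the strand of the gene. The windows are chr1:37890227-37890526 on the plus strand for Mrpl30, chr13:73330759-73331058 on the plus strand for Mrpl36, chr9:98601630-98601929 on the minus strand for Mrps22, chr5:100798509-100798808 on the plus strand for Mrps18c and chr3:95871465-95871764 on the minus strand for Mrps21. Capitals mark matches, on either strand, to the core letters of 3 motifs, GCGCNTG for NRF1, CCGGAAG for the ETS factors that include GABPA, and CCATNTT for YY1. These factors are known as regulators of nuclear genes for mitochondrial proteins.
Mrpl30: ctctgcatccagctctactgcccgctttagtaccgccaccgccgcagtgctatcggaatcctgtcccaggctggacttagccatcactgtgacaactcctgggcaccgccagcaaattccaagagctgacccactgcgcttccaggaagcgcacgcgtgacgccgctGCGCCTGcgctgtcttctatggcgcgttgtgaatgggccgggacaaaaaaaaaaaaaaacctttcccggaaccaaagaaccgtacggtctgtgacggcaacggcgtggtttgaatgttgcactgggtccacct
Mrpl36: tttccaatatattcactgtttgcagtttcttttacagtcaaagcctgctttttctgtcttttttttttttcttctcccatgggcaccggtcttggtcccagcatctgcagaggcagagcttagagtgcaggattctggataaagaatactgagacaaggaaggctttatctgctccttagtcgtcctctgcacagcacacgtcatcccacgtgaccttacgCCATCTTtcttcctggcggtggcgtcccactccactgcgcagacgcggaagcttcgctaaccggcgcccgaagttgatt
Mrps22: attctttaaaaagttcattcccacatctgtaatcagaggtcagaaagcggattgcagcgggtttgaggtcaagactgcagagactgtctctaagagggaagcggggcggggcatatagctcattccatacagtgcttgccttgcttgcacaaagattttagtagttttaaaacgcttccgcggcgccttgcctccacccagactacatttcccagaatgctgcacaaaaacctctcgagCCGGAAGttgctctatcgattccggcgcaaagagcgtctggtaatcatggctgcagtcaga
Mrps18c: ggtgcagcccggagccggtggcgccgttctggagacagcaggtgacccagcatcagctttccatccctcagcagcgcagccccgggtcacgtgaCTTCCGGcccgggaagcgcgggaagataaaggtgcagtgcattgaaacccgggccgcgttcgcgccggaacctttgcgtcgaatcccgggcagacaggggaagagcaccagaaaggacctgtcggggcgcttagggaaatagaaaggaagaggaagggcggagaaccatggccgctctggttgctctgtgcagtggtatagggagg
Mrps21: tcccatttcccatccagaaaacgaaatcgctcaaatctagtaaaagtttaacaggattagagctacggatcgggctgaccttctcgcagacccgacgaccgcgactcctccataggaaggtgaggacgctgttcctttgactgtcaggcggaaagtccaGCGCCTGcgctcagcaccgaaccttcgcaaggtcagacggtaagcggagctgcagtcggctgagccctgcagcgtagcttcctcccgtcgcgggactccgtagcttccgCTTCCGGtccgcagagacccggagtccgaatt

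In these windows the NRF1 letters occurred once in Mrpl30 and once in Mrps21, the ETS letters once each in Mrps22, Mrps18c and Mrps21, and the YY1 letters once in Mrpl36. RefSeq promoters were matched for 69 of the 78 members (75 promoters). The NRF1 letters were held by 26 of the 69 genes (37.7%), against 32.1% of the 9438 tested genes with a promoter and 17.8% of all 27025 genes with one. The ETS letters were held by 26 of 69 (37.7%), against 20.8% and 9.93%, and the YY1 letters by 23 of 69 (33.3%), against 18.2% and 18.2%. In the large subunit, 41.9% held the NRF1 letters, 34.9% the ETS letters and 34.9% the YY1 letters, and in the small subunit these shares were 30.8%, 42.3% and 30.8%. The shares are descriptions of the letters in these windows, and binding of the factors was not measured. The GENCODE annotation starts Mrpl36 further upstream than RefSeq does, so that its printed window lies inside the GENCODE gene.

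Facts of the whole data set that bear on these genes are as follows. Counts on genes came to between 11662654 and 15975698 per library, of which between 3852178 and 4593004 lay outside the mitochondrially encoded genes. A check for duplicate libraries gave a chi-square per gene of 9.42 between the pools of ISC_2mth and 7.11 between those of ISC_22mth. Markers of the stem cell summed to between 2708 and 2918 normalized CPM in all 4 pools, with 0 of 9 past the test. CPM are read counts scaled to a common library size, here by TMM, which sets the bulk of genes equal between libraries. Enterocyte markers rose in 3 of 7 genes, and their sum was 226 and 344 CPM in young and 672 and 558 CPM in old ISCs. Paneth markers rose in 2 of 6 genes, with sums of 888, 684, 1963 and 760 CPM, the high value being that of ISC_22mth replicate 1. Goblet markers (1870, 2461, 2559 and 1981 CPM) and proliferation markers (1451, 1497, 1533 and 1712 CPM) had 0 genes past the test. Leukocyte markers summed to between 15.1 and 22.8 CPM, and of 8 genes 2 could be tested and 1 of these rose. Enteroendocrine markers summed to between 26.8 and 125 CPM (6 genes, 5 tested, 1 higher) and tuft markers to between 0.828 and 6.73 CPM (6 genes, 2 tested, 1 higher). Markers of endothelium (4 genes, 1 tested, 0 called) and fibroblasts (4 genes, 0 tested) summed to at most 1.26 CPM. The part of other cells in the values below was not tested, and in pooled cells fewer cells of a type and less RNA per cell cannot be told apart.

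How mitochondrial ribosomal protein genes compared between ages was asked first. Of the 78 genes, 75 passed the filter on low counts (above 5 reads and above 1 CPM in some pool), 47 of the large and 28 of the small subunit. In the large subunit 2 genes, Mrpl30 and Mrpl36, rose in old ISCs and 0 fell, and in the small subunit 0 genes passed the test in either direction (edgeR's quasi-likelihood test, Benjamini-Hochberg FDR under 0.05 over all genes tested). These 2 of 75 stand beside 1.63% of all genes tested that rose, 0.628% that fell and 2.26% in both directions together, so that the share of members called was near that of all genes. An unadjusted p under 0.05 was reached in the positive direction by 6 members of the large and 4 of the small subunit (13.3% of 75, against 9.26% of all genes) and in the negative direction by 1 member, Mrps21 (against 7.65%).

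The fitted log2 fold changes of most members lay above 0. They were positive in 36 of 47 genes of the large subunit, with a median of 0.17, quartiles of 0.01 and 0.34 and a range from -0.32 to 0.64. In the small subunit they were positive in 20 of 28 genes, with a median of 0.21, quartiles of -0.08 and 0.37 and a range from -0.64 to 0.62. Over all genes tested, 49.5% were positive and 50.5% negative, and the quartiles were -0.29 and 0.23 around a median that rounds to 0. The 2 old pools exceeded the 2 young ones in 18 genes of the large and 12 of the small subunit, 40.0% of the 75 members, against 24.0% of all genes. Both lay below in 5 and 3 genes, 10.7% of the members, against 23.6%. Standard errors of single members ran from 0.14 to 0.35 in the large subunit (median 0.19) and from 0.14 to 0.56 in the small subunit (median 0.21), about as large as the medians themselves.

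**Figure D1:**
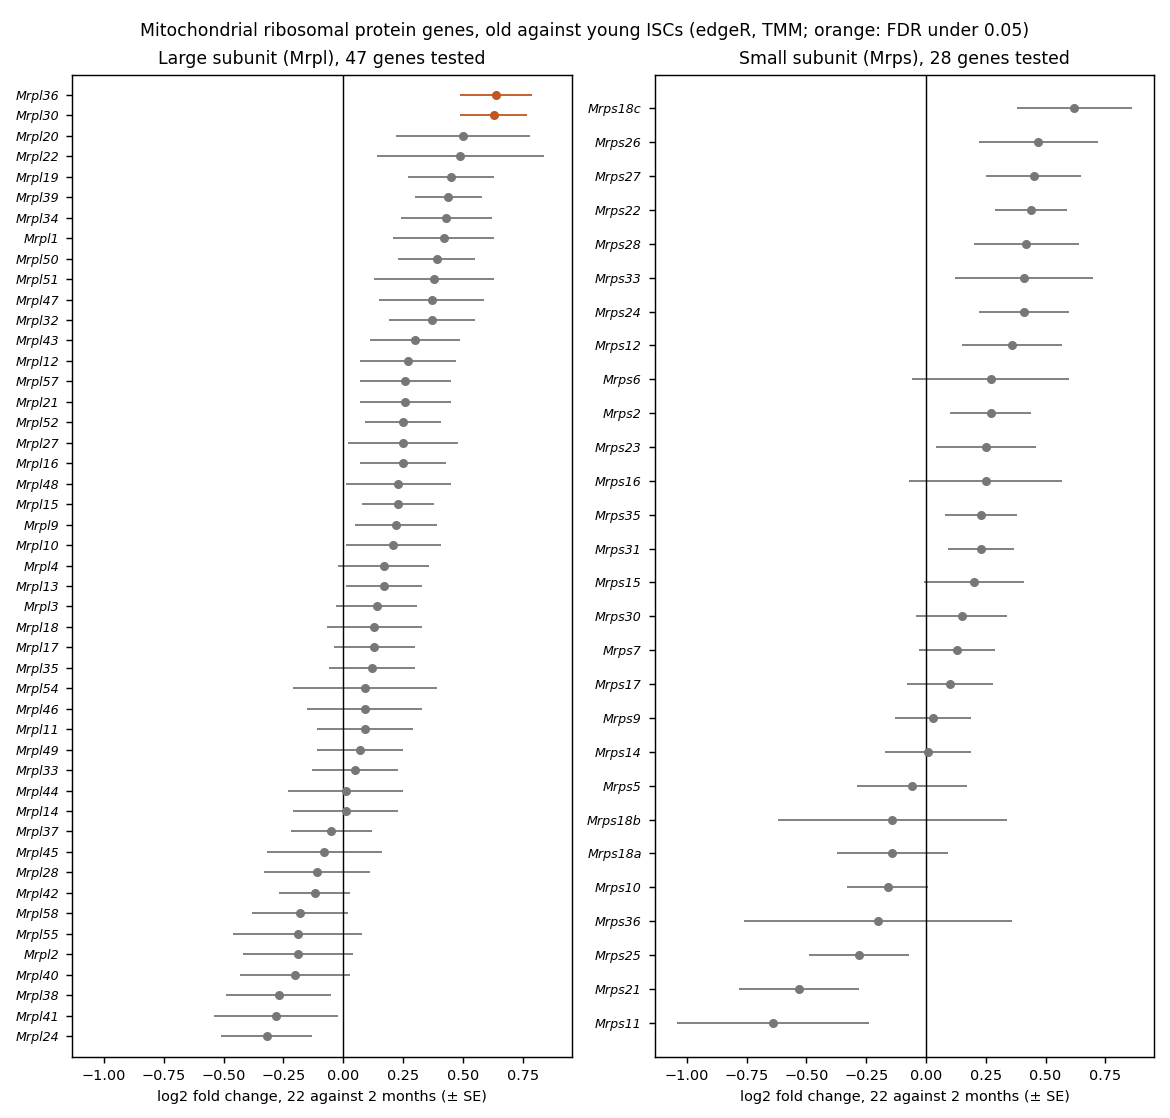
Log2 fold change of 22 against 2 months for each tested gene of the large (left, 47 genes) and small (right, 28 genes) subunit, with 1 standard error on either side and FDR under 0.05 in orange. Most points lie to the right of 0, and Mrpl36 and Mrpl30 alone are orange.

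The direction depended on the scaling. Mitochondrially encoded RNAs took 62.6% and 65.7% of counts in young and 73.8% and 72.9% in old ISCs. As a share of all counts, the 78 members took 0.118% and 0.115% in young and 0.0905% and 0.100% in old ISCs, so that both old pools were lower. As a share of the counts outside mitochondrially encoded genes they took 0.316% and 0.336% in young and 0.346% and 0.370% in old ISCs, so that both old pools were higher. Scaling by total counts shifted the median of all genes by -0.49, and gave a median of -0.32 for the large and -0.28 for the small subunit, with 9 and 6 genes called lower and 0 higher, where 33.1% of all genes were called lower and 0.701% higher. Relative to that shift the medians were 0.17 and 0.22 above all genes.

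**Figure D2:**
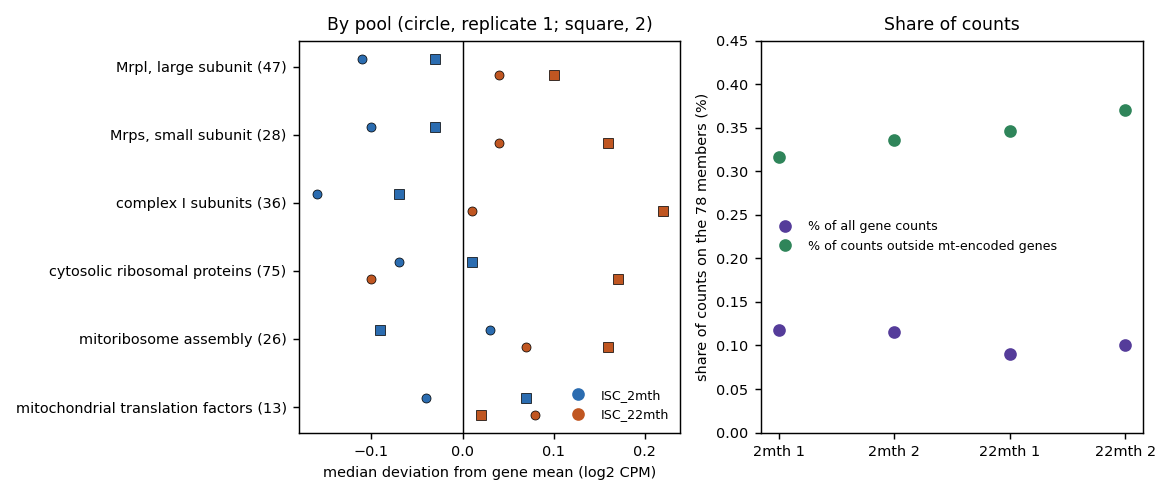
Left, the median over the tested genes of a list (number in brackets) of each gene's deviation from its own mean over the 4 pools, in log2 CPM, for the young (blue) and old (orange) pools. Right, the share of counts on the 78 members in each pool, in percent of all gene counts (purple) and of counts outside mitochondrially encoded genes (green), which move in opposite directions between ages.

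The pools of an age were not alike. The median deviation from the gene mean was -0.11 and -0.03 in the young pools and 0.04 and 0.10 in the old pools for the large subunit, and -0.10, -0.03, 0.04 and 0.16 for the small subunit, on the log2 scale. ISC_2mth replicate 1 was lowest and ISC_22mth replicate 2 highest in both. Without ISC_2mth replicate 1 the medians of the fold changes were 0.11 and 0.12, and without ISC_22mth replicate 2 they were 0.11 and 0.10. Without ISC_22mth replicate 1, the pool highest in Paneth markers, the medians were 0.20 and 0.27, and without ISC_2mth replicate 2 they were 0.23 and 0.22. Enterocyte markers were higher in both old pools, as these genes were, and their part was not tested. The difference between ages was larger than both differences between replicates in 20 of 47 genes of the large and 11 of 28 of the small subunit, 31 of 75 in all, beside 33.9% of all genes tested.

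Mrpl30, a large subunit protein with a bacterial counterpart, lies between positions 37890477 and 37898535 of chromosome 1 (GRCm38, GENCODE vM21), and its exons overlap no other gene. Its normalized expression was 23.7 and 27.6 CPM in the young pools and 38.8 and 40.9 CPM in the old pools. Both old pools lay well above both young ones. Its mean of 25.7 ± 2.76 CPM in young ISCs went up to 39.9 ± 1.51 CPM in old ISCs (SD, n = 2 pools per age). On the log2 scale the rise was 0.63 with a standard error of 0.14 (edgeR FDR = 0.025).

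Mrpl36, the other member that rose, is the counterpart of a small bacterial protein of the large subunit and lies on chromosome 13 from 73328513 to 73332178, where 30 bp of its exons overlap Ndufs6 on the opposite strand. It stood at 21.0 and 21.6 CPM in young and at 31.6 and 34.9 CPM in old ISCs. The young pools were nearly equal and both old pools higher. The mean went up from 21.3 ± 0.395 CPM to 33.2 ± 2.36 CPM. On the log2 scale the rise was 0.64 with a standard error of 0.15 (edgeR FDR = 0.027). The test that the study names, limma voom with sample quality weights, called both genes (log2 fold change 0.64 for both). The voom FDR was 0.019 for Mrpl30 and 0.025 for Mrpl36, where 1.78% of all genes were called higher. The study's own list of genes that differ between ages holds both. Both calls were lost with GC and length offsets (log2 fold change 0.52 and FDR 0.087 for Mrpl30, 0.60 and 0.053 for Mrpl36), with total counts (log2 fold change 0.15 for both, FDR 0.48 and 0.49) and without ISC_2mth replicate 1 (log2 fold change 0.53 and 0.62, FDR 0.27 and 0.16). That of Mrpl36 was also lost by DESeq2 (log2 fold change 0.64, FDR 0.053) and without ISC_2mth replicate 2 (log2 fold change 0.65, FDR 0.082).

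The other large subunit members of lowest p with a positive fold change were Mrpl39, Mrpl19, Mrpl50 and Mrpl34, and none of them passed the test. Mrpl39, a protein found only in mitochondrial ribosomes, was at 27.3 and 29.7 CPM in young and 40.8 and 36.6 CPM in old ISCs, with a log2 fold change of 0.44 (standard error 0.14, edgeR FDR = 0.12). Mrpl50, also particular to mitochondria, was at 20.6 and 25.1 CPM in young and 26.8 and 33.1 CPM in old ISCs (log2 fold change 0.39). In both genes the 2 old pools exceeded the 2 young ones, as in 24.0% of all genes, and both were named for a low p. Mrpl19 was at 13.9 and 17.5 CPM in young and 18.8 and 24.2 CPM in old ISCs (log2 fold change 0.45), but 36% of its exonic bases are shared with Gcfc2 on the opposite strand, and if strand was not used in counting, reads from these stretches could be of both genes. Mrpl34 was at 13.1 and 11.3 CPM in young and 17.4 and 15.4 CPM in old ISCs (log2 fold change 0.43). Mrpl19 and Mrpl34, which have bacterial counterparts, reached an edgeR FDR of 0.21 and 0.25. The fold change of Mrpl19 was 0.26 without ISC_22mth replicate 2 and that of Mrpl50 0.23, and Mrpl50 was at 0.25 without ISC_2mth replicate 1 and at 0.20 with GC and length offsets. With ISC_22mth replicate 1 left out Mrpl19 (log2 fold change 0.62, FDR 0.042), and with ISC_22mth replicate 2 left out Mrpl39 (log2 fold change 0.52, FDR 0.038), passed the threshold. The members called higher then numbered 4 and 3, where 2.91% and 3.39% of all genes were called higher, and without ISC_2mth replicate 1 or 2 they numbered 0 and 1, against 0.891% and 1.36%. DESeq2 called 1.07% of all genes higher, the fit with GC and length offsets 0.767%, the likelihood ratio test of edgeR 2.74% and the fit with the replicate number as a block 2.97%, and of the members they called 1, 0, 2 and 2.

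Mrpl24, Mrpl38 and Mrpl41 had the lowest p among large subunit members with a negative fold change. Mrpl24 was at 16.0 and 17.6 CPM in young and 11.5 and 15.4 CPM in old ISCs, a log2 fold change of -0.32 (standard error 0.19, edgeR FDR = 0.41), and 26.3% of its exonic bases overlap Rrnad1 on the opposite strand. Mrpl38 was at 8.28 and 9.34 CPM in young and 7.04 and 7.53 CPM in old ISCs (log2 fold change -0.27), and Mrpl41 at 6.42 and 5.96 CPM in young and 4.92 and 5.24 CPM in old ISCs (log2 fold change -0.28). The fold change of Mrpl24 was -0.13 without ISC_22mth replicate 1 and -0.55 without ISC_22mth replicate 2. In all 3 genes both old pools lay below both young pools, as in 23.6% of all genes, but none passed the test. With total counts all 3 were called lower, at -0.81 for Mrpl24, -0.76 for Mrpl38 and -0.78 for Mrpl41. In that fit 33.1% of all genes were called lower. Mrpl12, the protein of the flexible stalk that recruits translation factors, was at 8.83 and 10.2 CPM in young and 11.7 and 11.4 CPM in old ISCs (log2 fold change 0.27, standard error 0.20, edgeR FDR = 0.53).

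In the small subunit Mrps22, Mrps18c, Mrps27, Mrps24, Mrps28 and Mrps26 had the lowest p among positive fold changes. Mrps22, a protein particular to mitochondria on chromosome 9 from 98588730 to 98601660, was at 19.7 and 19.7 CPM in young and 25.7 and 27.8 CPM in old ISCs. The young pools agreed closely and the old ones lay above them, with a log2 fold change of 0.44 (standard error 0.15, edgeR FDR = 0.15). Mrps27, an RNA-binding pentatricopeptide repeat protein, was at 9.52 and 11.1 CPM in young and 13.1 and 15.0 CPM in old ISCs (log2 fold change 0.45), and 24.2% of its exonic bases overlap a transcript on the opposite strand. Mrps24, Mrps28 and Mrps26 had log2 fold changes of 0.41, 0.42 and 0.47, with edgeR FDR between 0.29 and 0.36, and no overlap between the pools of the 2 ages. Single pools moved some of these fold changes. Mrps24 was at 0.17 without ISC_22mth replicate 2 and at 0.62 without ISC_22mth replicate 1. Mrps26 was at 0.21 without ISC_2mth replicate 2 and at 0.77 without ISC_2mth replicate 1. Of the exonic bases of Mrps24, 15.4% lie in those of Urgcp on the same strand.

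Mrps21, Mrps11 and Mrps25 had the lowest p among negative fold changes of the small subunit. Mrps21, on chromosome 3 from 95862634 to 95871519, the counterpart of a bacterial small subunit protein, was at 8.35 and 8.75 CPM in young and 7.04 and 4.75 CPM in old ISCs. Both old pools were lower but far apart, and the log2 fold change was -0.53 (standard error 0.25, edgeR FDR = 0.29). Mrps11 was at 2.41 and 4.17 CPM in young and 2.42 and 1.80 CPM in old ISCs, so that the ages overlapped, with the lowest fold change of all members at -0.64 (standard error 0.40, edgeR FDR = 0.45). Mrps11 and Mrpl46 face away from each other on chromosome 7 and share 173 bp of exon on opposite strands, and Mrpl46 had a log2 fold change of 0.09. Mrps25 had a log2 fold change of -0.28 with 69.8% of its exonic bases in those of Nr2c2 on the opposite strand, so that its count is uncertain. Single pools decided the size of all 3 values. Mrps21 was at -0.85 without ISC_22mth replicate 1 and at -0.28 without ISC_22mth replicate 2. Mrps11 was at -0.98 without ISC_2mth replicate 1 and at -0.20 without ISC_2mth replicate 2, and Mrps25 at -0.14 without ISC_2mth replicate 1.

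**Figure D3:**
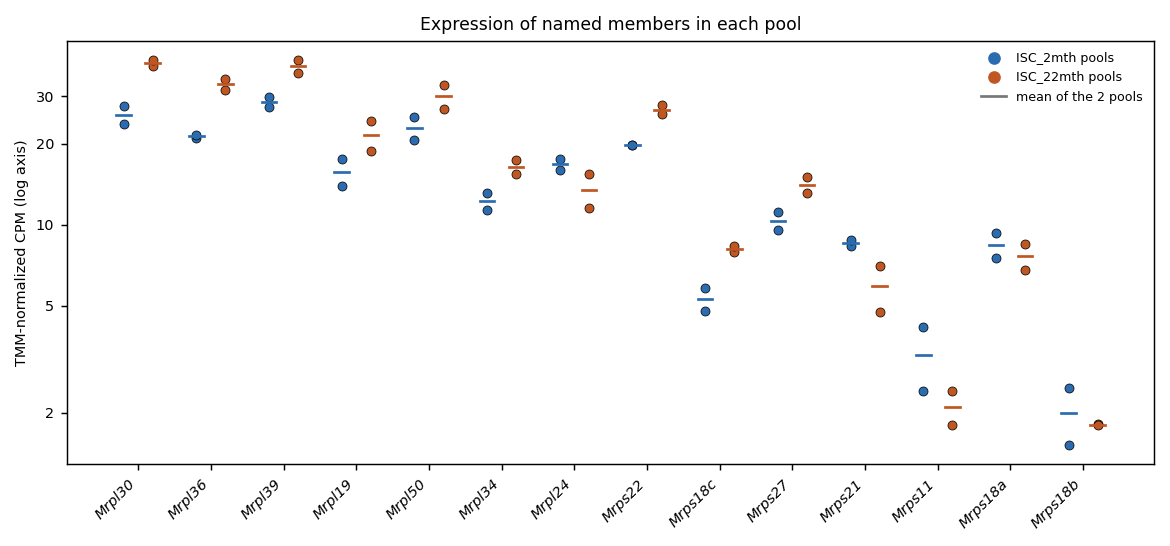
TMM-normalized CPM (log axis) of 14 named members in each of the 2 young (blue) and 2 old (orange) pools, with a bar at the mean of the 2 pools of an age. Mrpl30 and Mrpl36 show a gap between ages wider than the spread of the pools. So do Mrpl39, Mrpl34, Mrps22, Mrps18c and Mrps27, which did not pass the test. Mrps11 and Mrps18b differ more between the young pools than between ages.

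The 3 Mrps18 paralogs encode relatives of 1 bacterial small subunit protein that take different places in the mitoribosome, and 0 of them passed the test. Mrps18c, on chromosome 5 from 100798627 to 100804471, was at 5.80 and 4.77 CPM in young and 7.95 and 8.35 CPM in old ISCs. Its old pools both exceeded its young pools, as in 24.0% of all genes. Its log2 fold change was 0.62 (standard error 0.24, edgeR FDR = 0.20). Of its exonic bases 23.2% lie in those of Gm43511 on the same strand. Mrps18a, whose protein sits in the large subunit, was at 7.52 and 9.28 CPM in young and 8.48 and 6.80 CPM in old ISCs (log2 fold change -0.14, standard error 0.23). Mrps18b was low, at 2.48 and 1.52 CPM in young and 1.82 and 1.80 CPM in old ISCs (log2 fold change -0.14, standard error 0.48), and 30.5% of its exonic bases overlap an antisense gene. With single pools left out, the fold change ran from -0.31 to 0.02 for Mrps18a and from -0.46 to 0.25 for Mrps18b. The differences between the fold changes of the paralogs were not tested.

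The members whose protein does not sit where the name says gave no call either. Mrps30 was at 12.7 and 14.1 CPM in young and 12.9 and 16.9 CPM in old ISCs, with a log2 fold change of 0.15 (standard error 0.19, edgeR FDR = 0.74). Mrps36, of the 2-oxoglutarate dehydrogenase complex, was at 1.31 and 1.66 CPM in young and 1.44 and 1.15 CPM in old ISCs, with a log2 fold change of -0.20 (standard error 0.56) and 17.3% of its 50-nt stretches shared with other genes, mostly its own pseudogenes. With single pools left out, the fold change ran from -0.05 to 0.33 for Mrps30 and from -0.37 to -0.02 for Mrps36. With Mrps30 and Mrps18a counted in the large subunit and Mrps36 left out, the medians were 0.17 over 49 large and 0.23 over 25 small subunit genes, with 2 and 0 genes called.

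Levels can be compared between genes only per length, and are given as normalized CPM per kb of exon, averaged over the 4 pools. The median level was 5.86 over the 47 tested genes of the large and 3.48 over the 28 of the small subunit. Levels spanned 26.5-fold within the large subunit and 11.5-fold within the small. Mrpl52 was highest at 28.1, from 23.8 to 34.7 over the pools, followed by Mrpl34 at 23.6 and Mrpl36 at 23.5, and the ranges of these 3 over the pools overlapped. Mrpl39 came next at 13.3, and its highest pool (16.1) lay below the lowest pools of these 3. In the small subunit Mrps31 (10.5), Mrps28 (10.3) and Mrps24 (10.2) were highest and did not differ beyond their spread. Mrps21 came next at 9.77, and its range over the pools, from 6.43 to 11.8, overlapped those of all 3. The lowest tested members were Mrps18b (0.913) and Mrps36 (1.09) in the small and Mrpl48 (1.06) and Mrpl33 (2.02) in the large subunit. With the length of the longest transcript in place of all exonic bases, the median was 6.97 for the large and 5.69 for the small subunit. The same 3 genes then led the large subunit, while Mrpl33 moved to 5.41, its longest transcript being 2741 of 7326 exonic bases. The order changed at both ends of the small subunit, where Mrps24 (15.0), Mrps21 (14.8) and Mrps31 (13.1) were then highest and Mrps25 (1.60) and Mrps26 (1.68) lowest.

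**Figure D4:**
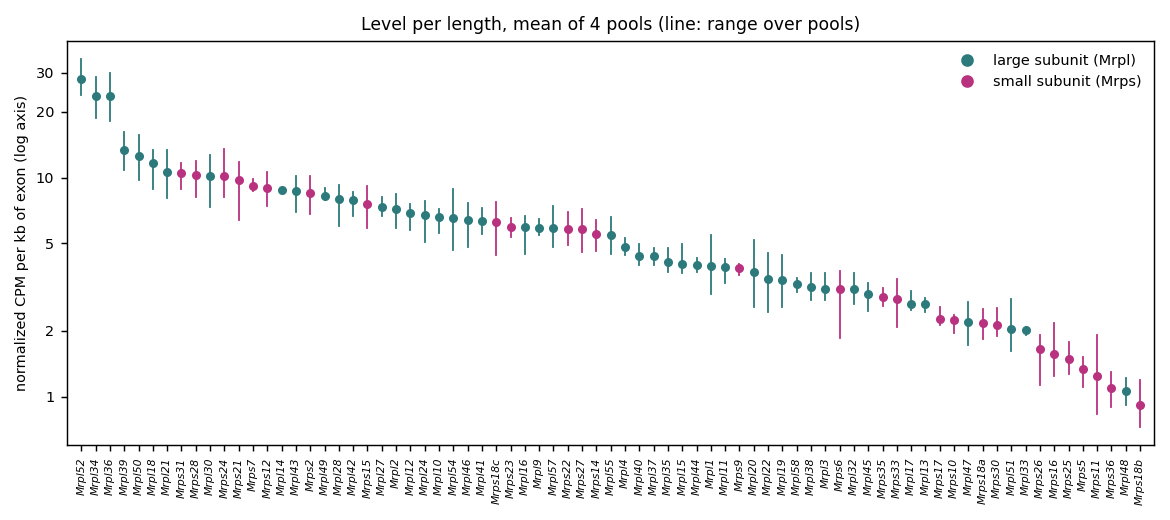
Level of each of the 75 tested members in normalized CPM per kb of exon (log axis), as the mean (point) and range (line) over the 4 pools, for the large (teal) and small (magenta) subunit. Mrpl52, Mrpl34 and Mrpl36 stand above 20, and most members lie between 1 and 10.

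For 3 members the counts were too low to be tested. Mrpl53, on chromosome 6 from 83109040 to 83109939, had 0, 3, 0 and 0 counts (young pools first), and 88% of its exonic bases are also exons of Gm42688 on the same strand. Mrps34, on chromosome 17 from 24895116 to 24897502, had 2, 2, 0 and 2 counts, with 77.8% of its exonic bases in those of Mapk8ip3 and Nme3. How reads on exons of several genes were counted is not stated. Mrpl23, with a processed pseudogene sharing part of its 50-nt stretches (11.8% shared with other genes), had 7, 9, 4 and 10 counts and no exon overlap. A count of 3 corresponded to between 0.199 and 0.246 normalized CPM, so that nothing can be said of a change in Mrpl53 and Mrps34 at this depth. Over all 78 members, 18 had more than 10% of their exonic bases in exons of another gene and 20 more than 10% of their 50-nt stretches in transcripts of another gene, 25 in either way. Without these, the medians were 0.15 over 34 large and 0.20 over 19 small subunit genes. Mrpl30 and Mrpl36 are not among the 25 and kept the calls of the same fit.

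The RNAs of the mitoribosome both rose. After TMM scaling mt-Rnr1, the small subunit rRNA, was at 195220 and 193820 CPM in young and 309600 and 310850 CPM in old ISCs, a log2 fold change of 0.67 (standard error 0.04, edgeR FDR = 7e-08). The large subunit rRNA mt-Rnr2 was at 273542 and 348534 CPM in young and 506894 and 470981 CPM in old ISCs, a log2 fold change of 0.65 (standard error 0.07, edgeR FDR = 2.7e-05). With total counts their log2 fold changes were 0.18 and 0.17 (edgeR FDR = 0.023 and 0.029), whereas the medians of the proteins were negative there. The difference between the rRNAs and the proteins was not tested.

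Other genes of the pathway gave no call in the main comparison. Of 5 mitoribosome proteins named otherwise (Dap3, Ptcd3, Chchd1, Aurkaip1 and Gadd45gip1), 0 passed the test, and their log2 fold changes ran from -0.14 to 0.26. Of 26 genes for assembly of the mitoribosome and modification of its rRNA, 0 passed the test, 4 had an unadjusted p under 0.05 in the positive and 1 in the negative direction, and the median was 0.08. Fastkd2, which binds the large subunit rRNA and is needed for assembly of that subunit, had the lowest p of these, with a log2 fold change of 0.64 and an edgeR FDR of 0.073. Of 13 mitochondrial translation factors 0 passed the test, 2 had an unadjusted p under 0.05, both positive, and the median was -0.02. Among these Guf1, a translation factor GTPase, had a log2 fold change of 0.54 (edgeR FDR = 0.072) and Tufm, the elongation factor that brings aminoacyl-tRNAs to the mitoribosome, one of -0.51 (FDR = 0.40). Guf1 passed the threshold by the likelihood ratio test, with the replicate block, without the filter, without ISC_2mth replicate 2 and without ISC_22mth replicate 2, and Fastkd2 by the first 2 of these. Tufm passed it, in the negative direction, with total counts. Fastkd2, Guf1 and Tufm were named after their values were seen. Guf1 is in the study's own list of genes that differ between ages, and Fastkd2 and Tufm are not.

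Subunits of complex I, which the mitoribosome supplies with its mitochondrially encoded partners, and the proteins of the cytosolic ribosome were set beside these genes. The nuclear-encoded complex I subunits had a median of 0.19 over 36 genes, positive in 30, with 2 called higher and 0 lower, and both old pools above both young pools in 50.0% of them. The cytosolic ribosomal proteins had a median of 0.08 over 75 genes, positive in 48, with 2 called higher and 1 lower, and both old pools above in 20.0% and below in 18.7%. The values of the mitochondrial ribosomal proteins, 40.0% above and 10.7% below, lay between these lists in both shares, as complex I had 0% below. The median deviations of the cytosolic ribosomal proteins were -0.07 and 0.01 in young and -0.10 and 0.17 in old ISCs, so that the ages overlapped. Those of complex I were -0.16 and -0.07 in young and 0.01 and 0.22 in old ISCs, without overlap, as in both subunits of the mitoribosome. The differences between lists were not tested.

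Fold changes of the members were set against features of the genes as a description. Across the 75 tested members, which share the 4 libraries, Spearman's rho of the fold change was -0.12 with exonic GC content, -0.06 with exonic length and 0.23 with mean expression. Over all genes with an annotation these were -0.22, -0.04 and 0.23. In the large subunit the values were -0.27, 0.09 and 0.33 over 47 genes, and in the small subunit 0.11, -0.26 and 0.11 over 28. With GC and length offsets in the fit, the medians were 0.13 and 0.17, and 0 members were called.

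**Figure D5:**
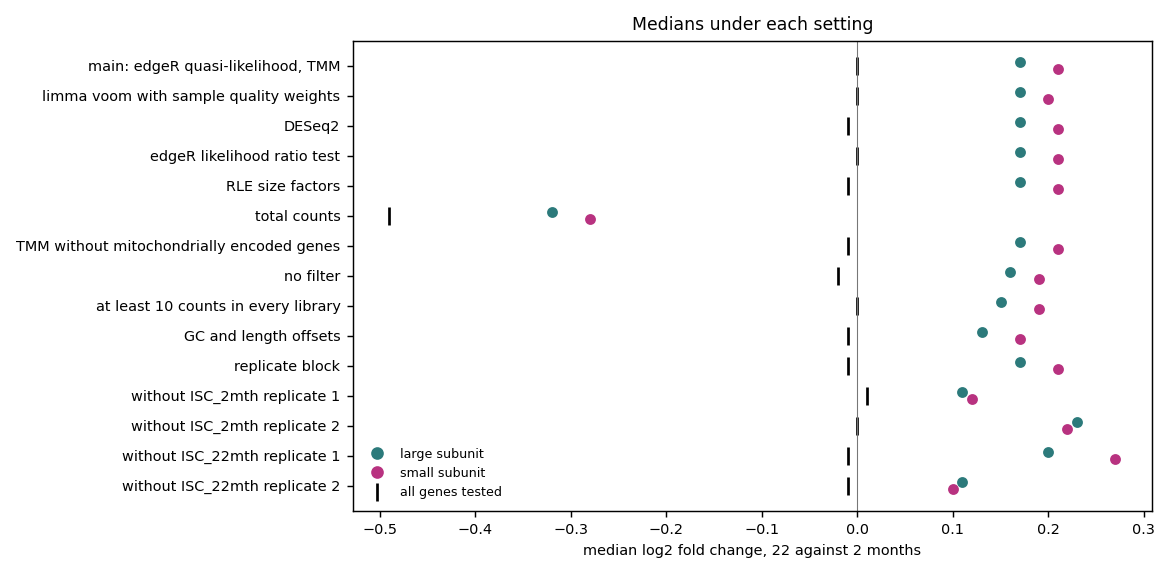
Median log2 fold change of the large (teal) and small (magenta) subunit and of all genes tested (black bar) under each setting. With total counts all 3 move below 0, and with single pools left out the subunit medians lie between 0.10 and 0.27.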

How the data were processed

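RNA-seq counts of 4 libraries were used. The authors trimmed reads with Trimmomatic 0.30, aligned them to the GRCm38 primary assembly with STAR 2.4.2a and counted reads in exons of GENCODE vM15 genes with featureCounts, and deposited raw counts. Strand setting and treatment of reads shared between genes or places are not given in the sources used here. Ages were compared with edgeR 4.0.16 (R 4.3.3, TMM, glmQLFit and glmQLFTest, no covariate) over the 13692 genes above 5 reads and above 1 CPM in some pool, with Benjamini-Hochberg FDR under 0.05. Standard errors came from the fold change and F value. The study names limma voom with sample quality weights, run here (limma 3.58.1) with DESeq2 1.42.0 and other alternatives. Scripts were tested on simulated data.

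Members and lists were chosen with earlier results of these data known. Named genes were members with FDR under 0.05, in each subunit the 6 of lowest p upwards and 3 downwards, the 3 highest and 2 lowest per length, members fixed by role, those not tested, and companion genes called. Positions, lengths, GC and overlaps came from GENCODE vM21, matched by symbol (47976 of 52459). Intervals were not computed, and p-values measure the spread between pools, whose amplified reads carry no molecular identifiers. Depth was between 11662654 and 15975698 counts.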

Additional observations from a re-analysis of the deposited data

How the results depend on the processing

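The number of large subunit members called (2) became 1 with DESeq2, 0 with GC and length offsets and 9, all lower, with total counts, and lay between 0 and 4 with single pools left out. A lone pool is then assumed to vary like the other age. The small subunit's 0 became 6, all lower, with total counts, where 33.1% of all genes were called lower. The median of the large subunit was -0.32 with total counts and 0.11 to 0.23 with pools left out, and that of the small subunit -0.28 and 0.10 to 0.27. The 2 companion genes called, both rRNAs, became 12 with total counts (both rRNAs higher and 10 other genes lower), 4 with the likelihood ratio test (with Fastkd2 and Guf1) and 0 without mitochondrially encoded genes, as that fit leaves both rRNAs out. The median level per length over the 75 tested members, 5.44, became 6.57 with the length of the longest transcript.

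Of 29 named genes tested, 15 turned negative with total counts, at -0.05 for Mrpl39, -0.03 for Mrpl19, -0.09 for Mrpl50, -0.07 for Mrpl34, -0.23 for Mrpl52, -0.26 for Mrpl48, -0.44 for Mrpl33, -0.21 for Mrpl12, -0.05 for Mrps22, -0.04 for Mrps27, -0.07 for Mrps24, -0.06 for Mrps28, -0.03 for Mrps26, -0.26 for Mrps31 and -0.33 for Mrps30. With pools left out, Mrps18a (from -0.31 to 0.02, positive without ISC_2mth replicate 2 and, at 0.01, without ISC_22mth replicate 2), Mrps30 (from -0.05 without ISC_22mth replicate 2 to 0.33) and Mrps18b (from -0.46 to 0.25 without ISC_2mth replicate 1) changed sign. With total counts 7 named genes outside those 15 were called lower, where 33.1% of all genes were. Their log2 fold changes were -0.81 for Mrpl24, -0.76 for Mrpl38, -0.78 for Mrpl41, -1.02 for Mrps21, -1.12 for Mrps11, -0.77 for Mrps25 and -0.62 for Mrps18a. The cause was not tested for any of these.

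With the replicate number as a block, 2 large and 0 small subunit members were called and 4 companion genes (with Fastkd2 and Guf1), and the calls over all genes went from 309 to 623. Same-numbered pools are different animals, and their deviations did not correlate (r = -0.00015 across genes). Whether same-numbered pools were prepared together is not stated, and this correlation cannot exclude it. Subunits assigned by structure and the removal of members with overlapping exons or shared stretches were both chosen after seeing the data. Both regroup members of the same fit with the same FDR. Neither could change a call, so they are no check of the calls. With SE of at least 0.14 per gene, changes of the size of the medians cannot be called in single members.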
